A study of Mus musculus with 40 samples.

Results

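The comparison described here is that of 9 CamKIIδC TG mice with 5 wild-type control mice at 3 months of age, 14 of the 40 hippocampal small RNA libraries of the series. The mice were chosen by age and genotype as the sample titles give them, with 1 library per mouse. The study's text gives fewer TG mice at this age than there are libraries with such a title, and which libraries it left out is not given in the sources used here. Values without TG mice 1, 2 and 3, whose libraries stood apart, are given beside the results, and whether these are the mice left out is not known. All were on a C57Bl/6J background. TG mice overexpress the δC isoform of calcium/calmodulin-dependent protein kinase II and serve as a mouse model of heart failure, and the controls are wild-type littermates. Both sexes were used, and the sex behind each library is not given in the sources used here, nor is the promoter of the transgene. RNA came from CA1, a subregion of the hippocampus. The transgene is an mRNA, so that its expression cannot be checked in counts of miRNAs. For control mice 1 and 2, a second label field names the TG genotype, and the fit was therefore repeated without them and with both regrouped as TG. Each gave 0 called miRNAs with edgeR, with 15 and 16 at an unadjusted p under 0.05.

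MicroRNAs are short RNAs that guide the silencing machinery to mRNAs, mainly through bases 2 to 8 of their 5′ end, the seed. MiRNAs with the same seed form a family and can bind the same target sites. The hippocampus is known for a set of abundant neuronal miRNAs, among them miR-128, miR-9 and miR-124, and for activity-linked miRNAs such as miR-132. The most abundant miRNA of these libraries was miR-128-3p with a mean of 135378 CPM (counts scaled to library size with the TMM method of edgeR) over the 14 mice, followed by miR-9-5p with 89038 CPM. The neuronal marker miR-124-3p stood at 4332 CPM.

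The mature sequences below belong to miRNAs on which the results turn, with the seed in capitals. They were read from RefSeq on GRCm38.p6, the build of the authors' alignment, and the annotation around them from GENCODE. The first pair shares 1 genomic cluster on the X chromosome, with miR-503-3p at chrX:53053987-53054008 and miR-450b-3p at chrX:53048008-53048029, both on the minus strand and outside any annotated host gene. MiR-211-5p lies in an intron of Trpm1, at chr7:64205831-64205852 on the plus strand, and miR-204-5p in an intron of Trpm3, at chr19:22750610-22750631 on the plus strand. MiR-344c-3p lies in an intron of the lincRNA A230057D06Rik, at chr7:61837323-61837345 on the minus strand. MiR-1198-3p lies in an intron of Gripap1, at chrX:7807180-7807201 on the plus strand, and miR-6948-5p in an intron of Acin1, at chr14:54643084-54643105 on the minus strand. The let-7 and miR-148 families are shown because their members include let-7f-5p and miR-148a-3p, the largest differences among the 10 most abundant miRNAs. Let-7f-5p can arise from chr13:48537889-48537910 on the minus strand or chrX:151912353-151912374 on the plus strand, and its family member let-7g-5p from an intron of Wdr82, at chr9:106178846-106178867 on the plus strand. MiR-148a-3p lies at chr6:51269829-51269850 on the minus strand, in no annotated host gene. MiR-1839-5p, at chr7:81529919-81529940 on the plus strand, overlaps an annotated scaRNA, and miR-3535, at chr1:86352062-86352087 on the minus strand, overlaps the snoRNA Gm24148 within the nucleolin gene Ncl. MiR-1194, miR-1a-3p and miR-486a-3p are described by their levels.
miR-503-3p: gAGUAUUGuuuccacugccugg
miR-450b-3p: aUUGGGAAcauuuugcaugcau
miR-211-5p: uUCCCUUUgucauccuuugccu
miR-204-5p: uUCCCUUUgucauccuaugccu
miR-344c-3p: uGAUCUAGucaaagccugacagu
miR-1198-3p: aAGCUAGCcucuaacucauggc
miR-6948-5p: aGUUCAGAcaggacugugacac
let-7f-5p: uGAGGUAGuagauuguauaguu
let-7g-5p: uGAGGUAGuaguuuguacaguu
miR-148a-3p: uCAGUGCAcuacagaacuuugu
miR-1839-5p: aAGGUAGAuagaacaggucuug
miR-3535: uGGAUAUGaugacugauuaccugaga

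Library totals ranged from 12006095 counts in control mouse 1 to 36547011 in TG mouse 6, of which 8215532 to 22892729 were miRNA counts. A floor of 3 counts corresponded to 0.108 to 0.485 CPM. This floor reflects counting error only, because copies made by PCR cannot be told apart here. The mean total was 4314173 counts higher in TG mice, within the spread of both groups (exact permutation test, two-sided, over 2002 splits, p = 0.377, adjusted over 4 measures 0.565). Synthetic spike-in oligos made up 0.119% ± 0.0285 (SD, n = 9) of counts in TG and 0.158% ± 0.0607 (SD, n = 5) in control mice (exact permutation test, p = 0.119, adjusted 0.476). No library was a copy of another.

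At 3 months, no miRNA differed by genotype beyond the spread between mice. Of 695 miRNAs tested, 0 (0%) were called altered with edgeR's quasi-likelihood test, at an FDR of 0.05 and with a log2FC beyond 0.26 in either direction. The p-values measure the spread between these mice. The smallest adjusted p was 0.998. At an unadjusted p under 0.05 there were 7 miRNAs (1.01%), 3 higher and 4 lower in TG mice. DESeq2 without further factors also called 0, with 12 miRNAs at an unadjusted p under 0.05. In no miRNA did every TG mouse lie above or below every control mouse, 0 of 695 (0%). The log2FC of TG over control lay between -0.78 and 1.14 with a median of 0.04, and 386 miRNAs (55.5%) were higher in TG mice. When library sizes were set by the spike-in oligos, the median log2FC of all miRNAs moved to 0.32 and 630 of 695 miRNAs were then higher. The directions below are therefore relative to the bulk of the miRNAs, as the TMM method scales it.

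The size of difference that remained possible depended on the level of the miRNA. The 95% interval of the log2FC had a median width of 1.42, and for 394 of 695 miRNAs it lay within a doubling or halving, between -1 and 1. Of the 76 miRNAs under 1 CPM, 20 had an interval within these bounds, with a median width of 1.86. Of the 82 miRNAs at 1000 CPM or more, 65 did, with a median width of 1.04. The 3 narrowest intervals among miRNAs of at least 100 CPM were those of miR-181d-5p (-0.16 to 0.50), miR-409-5p (-0.60 to 0.07) and miR-423-3p (-0.47 to 0.19). The 3 widest were those of miR-369-3p (-1.26 to 1.56), miR-148a-3p (-0.45 to 1.97) and miR-151-3p (-0.47 to 1.88).

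**Figure D1:**
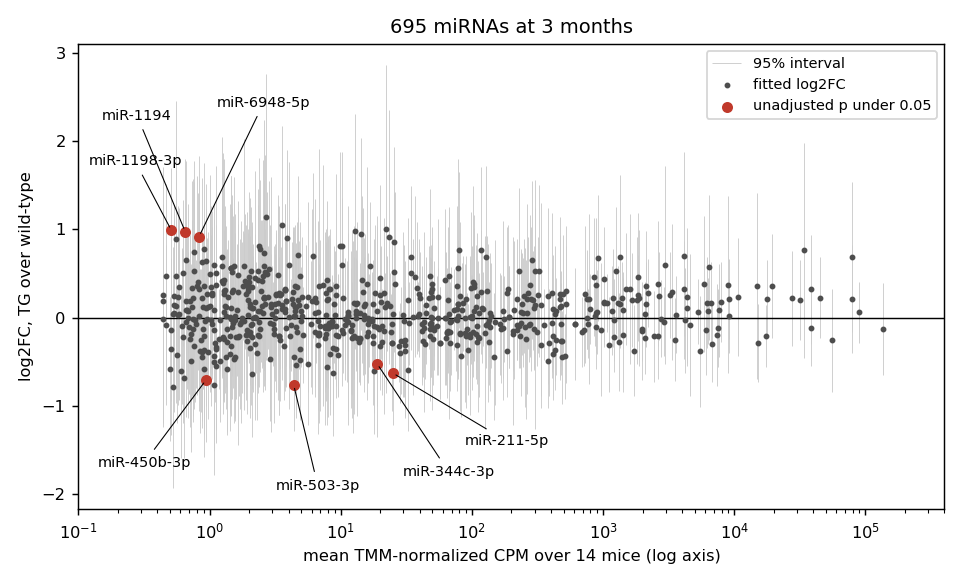
Each point is a miRNA, with its mean TMM-normalized CPM over the 14 mice on a log axis and its fitted log2FC of TG over wild-type control on the vertical axis, and grey lines are 95% intervals. Intervals narrow towards abundant miRNAs, and the 7 red points with an unadjusted p under 0.05 have mean levels of 0.511 to 24.96 CPM.

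The lowest unadjusted p belonged to miR-503-3p, from a precursor in an X-chromosomal cluster with miR-322, miR-351, miR-542 and miR-450. Its level was between 2.36 and 4.60 CPM in TG mice, with a median of 3.47. Control mice had 6.16, 3.16, 6.41, 6.05 and 8.05 CPM. All TG mice lay below 4 of the 5 control mice, and control mouse 2 lay among the TG mice. The log2FC was -0.76 (standard error 0.25, 95% interval -1.28 to -0.24, p = 0.00676, adjusted p = 0.998 from edgeR). The opposite arm, miR-503-5p, had a log2FC of 0.08.

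MiR-450b-3p, from the same cluster, was near the floor, at 0.162 to 1.203 CPM in TG mice with a median of 0.74. Control mice had 1.44, 1.34, 1.81, 1.15 and 0.69 CPM. The ranges overlapped through control mice 4 and 5, and the log2FC was -0.71 (95% interval -1.40 to -0.01, p = 0.0465, adjusted p = 0.998 from edgeR). Of the 9 cluster members tested, 6 were lower and 3 higher in TG mice, with a median log2FC of -0.32 beside 0.04 for all miRNAs. Among them, miR-322-3p had a log2FC of -0.32, miR-450a-5p of -0.41 and miR-542-3p of 0.25. Of the 9, 3 were higher without TG mice 1, 2 and 3, and 0 without TG mouse 8 and control mice 1 and 5.

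MiR-211-5p was the most abundant of the 7, at 12.5 to 38.7 CPM in TG mice with a median of 18.6. Control mice had 35.7, 19.8, 31.6, 25.9 and 48.5 CPM. Of the 9 TG mice, 5 lay below every control mouse, while TG mouse 8 lay above 4 of the 5. The log2FC was -0.63 (95% interval -1.21 to -0.04, p = 0.0365, adjusted p = 0.998 from edgeR). Its family member miR-204-5p, which is abundant in choroid plexus epithelium, was at 317 to 759 CPM in TG mice with a median of 468. In control mice it was at 644, 405, 659, 528 and 865 CPM. The ranges overlapped widely, with a log2FC of -0.44 (95% interval -0.92 to 0.05, p = 0.0730, adjusted p = 0.998 from edgeR). The mature forms differ at 1 base, U17A counted from the 5′ end from miR-211-5p to miR-204-5p, and their reads may be hard to separate. MiR-211-5p made up 3.49% to 4.88% of the pair's CPM in TG and 4.57% to 5.31% in control mice.

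MiR-344c-3p showed 11.3 to 23.7 CPM in TG mice with a median of 16.1. Control mice had 31.5, 16.5, 20.3, 21.2 and 28.2 CPM. Again 5 of 9 TG mice lay below every control mouse, and the ranges overlapped in the rest. The log2FC was -0.52 (95% interval -0.998 to -0.044, p = 0.0342, adjusted p = 0.998 from edgeR). The log2FC shrank to -0.32 without TG mouse 8 and control mice 1 and 5, and to -0.16 with spike-in library sizes.

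The 3 miRNAs higher in TG mice at an unadjusted p under 0.05 were all below 1 CPM on average, with as few as 2 or 3 counts in a library. MiR-1198-3p was at 0.43 to 0.97 CPM in TG and 0.26, 0.49, 0.14, 0.29 and 0.29 CPM in control mice, with a log2FC of 0.99 (95% interval 0.28 to 1.70, p = 0.00886). MiR-1194 was at 0.32 to 1.30 CPM in TG and 0.39, 0.80, 0.28, 0.29 and 0.20 CPM in control mice, with a log2FC of 0.97 (95% interval 0.15 to 1.80, p = 0.0228). MiR-6948-5p was at 0.47 to 2.75 CPM in TG and 0.39, 0.71, 0.63, 0.40 and 0.29 CPM in control mice, with a log2FC of 0.92 (95% interval 0.01 to 1.83, p = 0.0483). The adjusted p of each was 0.998 with edgeR, and all 9 TG mice lay above the control median in all 3, though the ranges overlapped. The value of miR-6948-5p rested on TG mice 1, 2 and 3, without which the log2FC was 0.37. The opposite arm of miR-1198-3p, miR-1198-5p at 466 CPM, had a log2FC of 0.12.

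**Figure D2:**
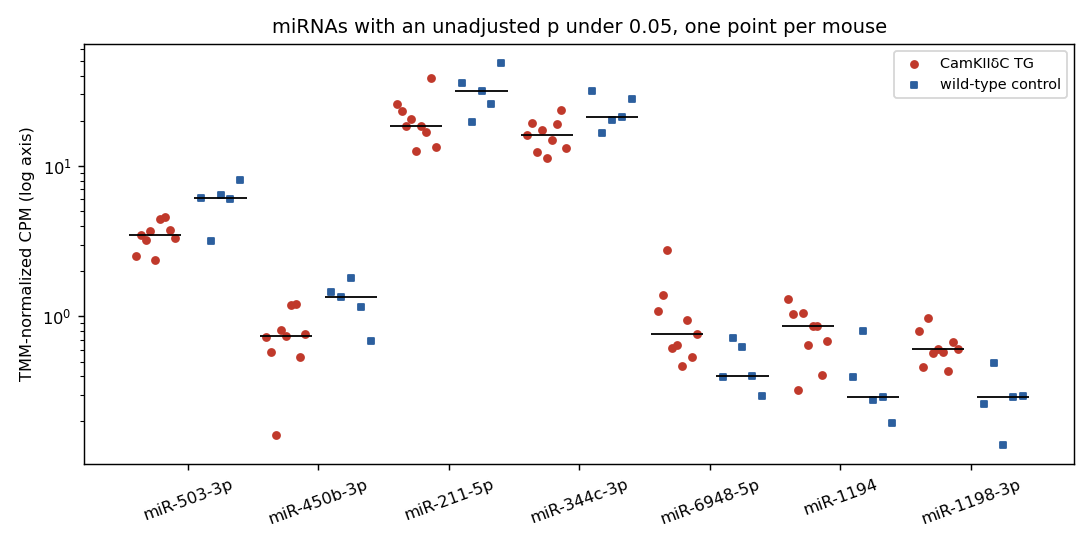
Each point is a mouse, with 9 CamKIIδC TG (red circles) and 5 wild-type control mice (blue squares), and the log axis gives TMM-normalized CPM of the 7 miRNAs with an unadjusted p under 0.05. Black lines are group medians, and in each of the 7 the groups overlap.

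Much of the variation among the 14 libraries did not follow genotype. The first principal component of the log2 CPM held 64.2% of the variance and placed TG mice 1, 2 and 3 at 16.0, 19.2 and 29.3. TG mice 4, 5, 6, 7 and 9 lay between -17.3 and -8.23, together with control mouse 2 at -15.7. The second component held 12.1% and set TG mouse 8 and control mice 1 and 5 apart, at 10.0 to 12.2. These 3 libraries had totals of 12006095 to 14052092, and miR-128-3p took 18.8% to 20.2% of their counts. TG mouse 3 also had a low total, 13377760, but lay at -5.41 on this component. On the first component, TG mice 1, 2 and 3 had totals of 13377760 to 25145705 and TMM factors of 0.69 to 0.82. At its other end, TG mice 4, 5, 6, 7 and 9 and control mouse 2 had 29499287 to 36547011 and 1.09 to 1.26. The median SD of the log2 level was 0.64 in TG and 0.45 in control mice, and 0.42 in TG mice without mice 1, 2 and 3. The SD was larger in TG than in control mice for 534 of 695 miRNAs. No label names a batch that sets these libraries apart, and the part of the library differences in the results was not tested.

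**Figure D3:**
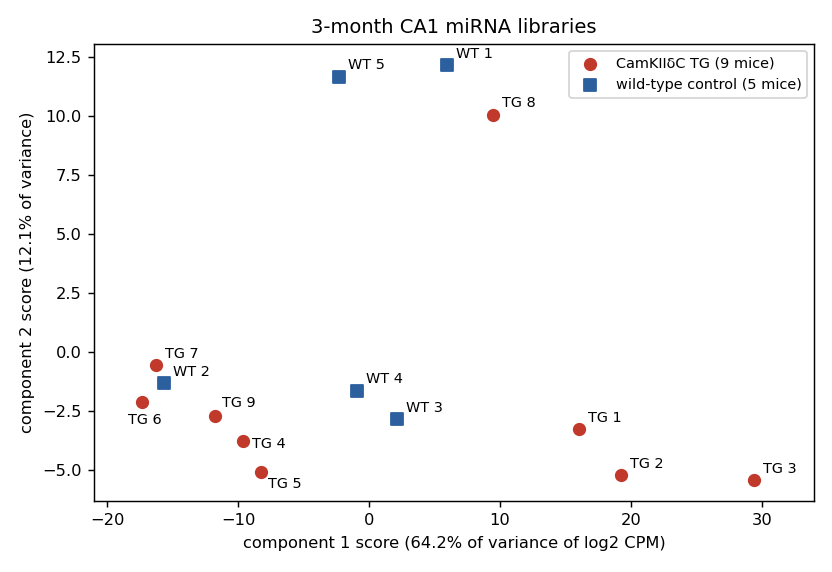
Each point is a mouse, placed by the first 2 principal components of the log2 CPM of 695 miRNAs. TG mice 1, 2 and 3 lie apart on the first component, and TG mouse 8 and control mice 1 and 5 on the second.

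The separation of TG mice 1, 2 and 3 was also seen in some of the most abundant miRNAs. Let-7f-5p was at 132505, 165234 and 210612 CPM in these mice. In the other 6 TG mice it was between 44488 and 64598 CPM. Control mice had 47246, 49717, 75963, 71581 and 38426 CPM, a range that spans these 6 TG mice. Over all 9 TG mice the log2FC was 0.69 (95% interval -0.16 to 1.54, p = 0.105, adjusted p = 0.998 from edgeR), and -0.12 without TG mice 1, 2 and 3. MiR-148a-3p was also highest in TG mice 1, 2 and 3, with 69746 to 96168 CPM there and 11480 to 35018 CPM in control mice. Summed over its seed family, TG mouse 8 lay above every control mouse too, at 47965 CPM beside at most 37327 CPM. The log2FC of miR-148a-3p was 0.76 over all mice and -0.36 without TG mice 1, 2 and 3. MiR-151-3p was highest in the same 3 mice, with a log2FC of 0.70 that became -0.25. The neuronal miR-124-3p moved the other way, at 1782 to 2469 CPM in TG mice 1, 2 and 3 and at 2995 to 6415 CPM in control mice. MiR-34a-5p, a target of p53 that is linked to ageing and memory decline, was at 10.5 to 20.1 CPM in these 3 TG mice and at 32.3 to 141 CPM in control mice.

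**Figure D4:**
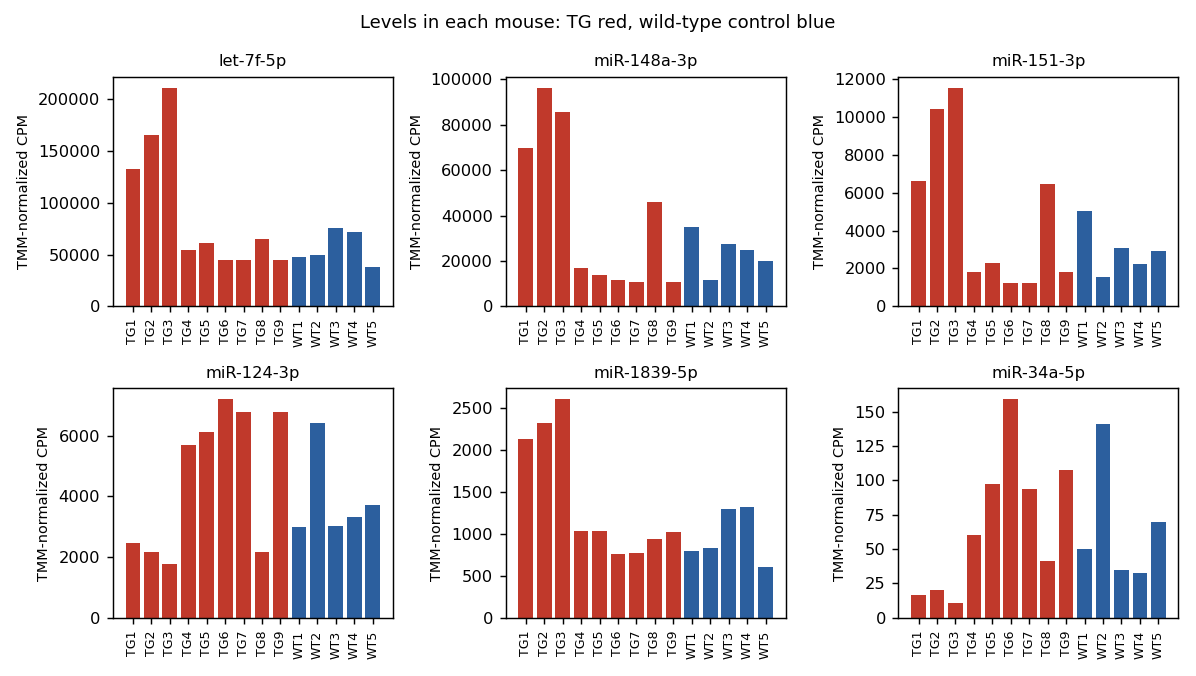
Bars give TMM-normalized CPM of 6 miRNAs in each of the 9 CamKIIδC TG (red) and 5 wild-type control mice (blue), each panel with its own axis from 0. TG mice 1, 2 and 3 were highest in let-7f-5p, miR-148a-3p, miR-151-3p and miR-1839-5p and lowest in miR-34a-5p.

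Seed families were counted over tested miRNAs with a matched RefSeq sequence, so that a family can have further members. Only the let-7 count was repeated without TG mice 1, 2 and 3. All 11 such miRNAs with the let-7 seed (GAGGUAG), a family known for promoting differentiation, had a log2FC above 0, between 0.07 and 0.69 with a median of 0.32. Of these 11, 2 were above 0 without TG mice 1, 2 and 3, and 1 without these and TG mouse 8 and control mice 1 and 5. Their summed level was 327972 to 479554 CPM in TG mice 1, 2 and 3 and 144829 to 247452 CPM in control mice. The miR-148 family (CAGUGCA) had 3 of 3 members higher, at 0.05 to 0.76. The miR-181 family (ACAUUCA), which acts at synapses and in immune cells, had 4 of 4 higher, at 0.17 to 0.38. The miR-29 family (AGCACCA) had 3 of 3 higher, at 0.23 to 0.69, and the 3 were 0.49, 0.93 and 0.81 for miR-29a-3p, miR-29b-3p and miR-29c-3p without TG mice 1, 2 and 3. Other families with at least 3 such miRNAs were mixed. The seeds GUAAACA (miR-30) and AAAGUGC (miR-17) had 1 of 4 higher each, AUAUAAC 1 of 3 and AUUGCAC 4 of 5. AAUACUG and AGUGCAA had 3 of 3 higher. Over all miRNAs, 55.5% were higher. None of the family members passed the test, and members with near-identical sequences can share reads.

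Among the 10 most abundant miRNAs, none was called. Besides the let-7 members and miR-148a-3p, the log2FC was -0.13 for miR-128-3p (95% interval -0.65 to 0.40) and 0.06 for miR-9-5p (-0.29 to 0.41). It was 0.21 for miR-127-3p (-0.40 to 0.82, and -0.22 without TG mice 1, 2 and 3), -0.26 for miR-99a-5p (-0.84 to 0.33) and -0.12 for miR-26a-5p (-0.55 to 0.31, and 0.089 without the 3). Their levels overlapped between the groups.

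The largest differences among miRNAs of at least 10 CPM came with wide intervals. MiR-10b-5p had the highest log2FC, 1.00 (95% interval -0.86 to 2.86), and its level ran from 3.47 to 125 CPM in TG mice with a median of 12.3. Control mice had 5.64, 4.01, 49.3, 1.96 and 6.57 CPM, so that 1 mouse in each group lay far above the rest. MiR-184-3p (0.98), miR-200a-5p (0.95), miR-15a-5p (0.91) and miR-486a-3p (0.86) followed. MiR-184-3p was at 29.5 to 39.1 CPM in TG mice 1, 2 and 3 and at 4.32 to 9.97 CPM in control mice. Without these 3 mice the log2FC was -0.31 for miR-184-3p and -0.18 for miR-10b-5p. MiR-15a-5p was at 2.70 to 55.2 CPM in TG mice and at 9.05, 41.5, 8.78, 7.38 and 7.26 CPM in control mice, so that all control mice but mouse 2 lay in the lower TG range. This miRNA, which is processed together with miR-16-5p from an intron of Dleu2, stayed above 0 under each alternative tried, at 0.35 to 1.83, while miR-16-5p had a log2FC of 0.25.

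The lowest log2FC among miRNAs of at least 10 CPM, after miR-211-5p, were those of miR-1264-3p (-0.60), miR-758-3p (-0.59), miR-344c-3p and miR-369-5p (-0.49). MiR-1264-3p lies in an intron of the serotonin receptor gene Htr2c. It was at 5.02 to 23.6 CPM in TG mice with a median of 14.7, and at 22.6, 24.0, 14.0, 19.4 and 35.9 CPM in control mice. Of the 9 TG mice, 3 were below every control mouse, and these were TG mice 1, 2 and 3. MiR-758-3p and miR-369-5p belong to the large miRNA cluster on chromosome 12 with the lincRNA Mirg. Both were highest in control mice 1 and 5 and TG mouse 8, with 70.5, 64.2 and 55.8 CPM for miR-758-3p. Without these 3 mice the log2FC of miR-758-3p was -0.02 and that of miR-369-5p was -0.12.

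The study's compensatory miRNAs, which the study selected among miRNAs lower at 6 than at 3 months in TG mice, include 22 miRNAs examined here. All 22 had a log2FC above 0, with a median of 0.22, while 55.5% of all miRNAs did and 0 of the 22 were called. Many of the 22 are abundant, and abundant miRNAs lay above 0 more often. Of the 82 miRNAs at 1000 CPM or more, 56 were higher in TG mice, with a median log2FC of 0.17. Because the selection used TG mice of 3 months, at least some of which are among those compared here, the direction is not independent evidence. The most abundant were let-7g-5p (0.23), let-7i-5p (0.32), let-7c-5p (0.20) and let-7a-5p (0.36). Without TG mice 1, 2 and 3, 13 of 22 were above 0, and 10 of 22 without the 6 mice set apart on the components. In the mice of 6 months, 13 of 22 were above 0.

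The miRNAs of heart and skeletal muscle were examined because TG mice carry heart disease. Of 7 listed, 5 could be tested, and 4 of these were higher in TG mice, with a median log2FC of 0.52 and 0 called. MiR-1a-3p, the muscle miRNA of highest level here, was between 651 and 1769.7 CPM in TG mice with a median of 972. Control mice had 462, 645, 1296, 591 and 284 CPM. All 9 TG mice lay above 4 of the 5 control mice, and control mouse 3 lay above 6 of the 9 TG mice. The log2FC was 0.68 (95% interval -0.04 to 1.39, p = 0.0622, adjusted p = 0.998 from edgeR), and 0.27 without TG mice 1, 2 and 3, which held the 3 highest values. MiR-133a-3p (0.38), which is made with miR-1a-3p in muscle, was at 2.91 to 5.64 CPM in these 3 mice and at 6.43 to 29.6 CPM in control mice, the opposite order. MiR-206-3p had a log2FC of 0.59 and miR-499-5p of -0.14. The heart-specific miR-208a-3p and miR-208b-3p had at most 1 and 3 counts in a library. In bulk tissue, fewer cells of a type and less RNA per cell cannot be told apart.

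Markers of red blood cells were examined alongside. Of 7 tested, 6 were higher in TG mice, with a median log2FC of 0.27 and 0 called. The defining miR-451a had a log2FC of -0.09 (95% interval -0.56 to 0.39), at 159 to 379.8 CPM over all 14 mice. MiR-486a-5p and miR-486b-5p, whose sequences are near-identical, were at 0.27 each. MiR-486a-3p was at 41.5, 52.5 and 81.9 CPM in TG mice 1, 2 and 3 and at 6.97 to 25.9 CPM in control mice. Its log2FC of 0.86 became -0.06 without these 3 TG mice, and 4 of 7 red blood cell markers were then above 0. The part of blood in the TG libraries was not tested beyond these levels.

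The choroid plexus list, which marks the tissue next to the hippocampus that secretes cerebrospinal fluid, split in its direction. Its 3 members from the miR-204 and miR-211 precursors (miR-204-5p, miR-204-3p and miR-211-5p) were lower in TG mice, at -0.44, -0.27 and -0.63. Its 3 members from the miR-200a, miR-200b and miR-429 precursors (miR-200a-3p, miR-200b-3p and miR-429-3p) were higher, at 0.25, 0.29 and 0.30. Of these 6, 0 were called and 1, miR-211-5p, had an unadjusted p under 0.05. The summed level ran from 505 to 1145 CPM in TG and from 652 to 1095 CPM in control mice, so that the groups overlapped. The split into 3 and 3 was the same without TG mice 1, 2 and 3, and the median log2FC of the list was 0.07 then and -0.12 without TG mouse 8 and control mice 1 and 5.

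Among neuronal miRNAs, 9 of 14 were higher in TG mice, with a median log2FC of 0.07 and 0 called. The median was 0.25 without TG mice 1, 2 and 3 and 0.33 without the 6 mice set apart on the components. With spike-in library sizes 14 of 14 were higher, as were 630 of 695 over all miRNAs. MiR-124-3p was at 0.23 (95% interval -0.55 to 1.01), and at 0.55 and 0.62 without these sets of mice. MiR-7a-5p was at 0.22 and miR-125b-5p at 0.21. MiRNAs linked to synaptic activity were higher in 6 of 9, with a median of 0.09, and in 9 of 9 with spike-in library sizes. Among them, miR-132-3p, which is induced by neuronal activity through CREB, was at 1164 to 2394 CPM in TG and 1134 to 1818 CPM in control mice. Its log2FC was 0.09 (95% interval -0.34 to 0.52). MiRNAs linked to memory decline were higher in 4 of 9, with a median of -0.07. There, miR-34c-5p was at 94.6 to 199 CPM in TG mice and at 84.1, 138, 430, 144 and 86.4 CPM in control mice. Its log2FC of -0.44 (95% interval -1.16 to 0.27) rested on control mouse 3, the one mouse above the TG range, and was 0.21 without it. MiR-148a-3p, described above, is also on this list. MiR-181a-5p was at 0.18 and miR-146a-5p at -0.07.

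The remaining cell types and conditions gave similar counts, and none of their members was called. Of 8 oligodendrocyte miRNAs, 4 could be tested and 3 of these were higher, with miR-219a-2-3p at 0.22 and miR-338-3p at 0.66 (95% interval -0.24 to 1.55). Of 8 microglial and inflammatory miRNAs, 2 were higher, with miR-21a-5p at -0.01, miR-146b-5p at -0.22 and miR-150-5p at -0.07. Without TG mice 1, 2 and 3, 7 of these 8 were above 0. With spike-in library sizes 8 of 8 were above 0, as were 630 of 695 over all miRNAs, which also applies to the spike-in counts below. Of 5 vessel miRNAs, 2 were higher, with the endothelial miR-126a-3p at -0.29 and the smooth muscle miR-143-3p at 0.17, and all 5 were higher with spike-in library sizes. All 5 hypoxia and stress miRNAs were above 0, with a median of 0.18, and miR-210-3p, a target of hypoxia-inducible factor, was at 0.28 (95% interval -0.49 to 1.05). Of 33 tested members of the chromosome 12 cluster around Mirg, 15 were higher and 18 lower (30 higher with spike-in library sizes), with miR-379-5p at 0.57, miR-381-3p at 0.36, miR-541-5p at 0.11 and miR-300-3p at 0.04.

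**Figure D5:**
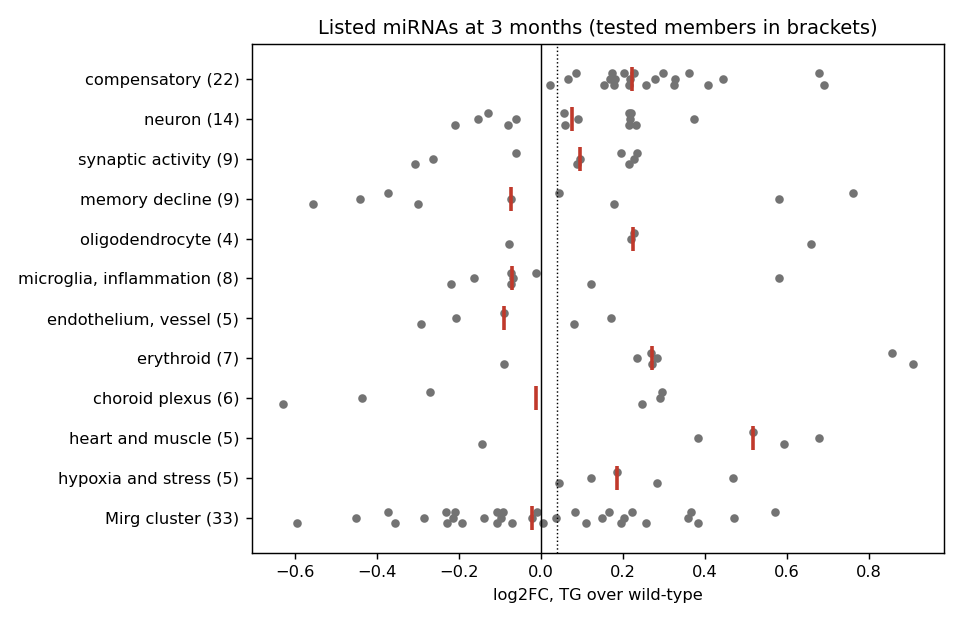
Points are the log2FC of TG over wild-type control of the tested members of each list at 3 months, red lines are list medians, and the dotted line is the median of all miRNAs at 0.04. All 22 compensatory and all 5 hypoxia and stress miRNAs lie above 0, and the other lists fall on both sides.

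Fits with estimated factors of unwanted variation gave other counts. The number of factors behind the published fits is not given in the sources used here, so such fits are alternatives. With 2 RUVr factors, which are estimated from the residuals of a first fit, edgeR called 48 miRNAs (6.91%), 14 higher and 34 lower in TG mice. DESeq2 with the same factors called 82 (11.8%), 47 higher and 35 lower. Both called 45 miRNAs, 93.8% of the edgeR and 54.9% of the DESeq2 calls. Factor 1 had values of -0.53 to -0.30 in TG mice 1, 2 and 3 and factor 2 of -0.59 to -0.38 in TG mouse 8 and control mice 1 and 5. By construction such factors hold almost no difference between the groups, with means of 0.00330 and -0.00594 for factor 1 in TG and control mice. Of the 45 miRNAs, 22 kept their direction without TG mice 1, 2 and 3, and 13 kept it without all 6 mice set apart on the components.

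Under DESeq2 with 2 RUVr factors, the smallest adjusted p values among higher miRNAs of at least 10 CPM were those of miR-1839-5p, miR-486a-3p and miR-3535. MiR-1839-5p, whose locus is also annotated as a scaRNA, was at 2136, 2326 and 2608 CPM in TG mice 1, 2 and 3. It was at 755 to 1039 CPM in the other TG mice and at 795, 833, 1297, 1320.5 and 602 CPM in control mice. Its log2FC was 0.53 (95% interval -0.19 to 1.25) without factors, 0.50 with the factors (adjusted p = 7.07e-08, DESeq2) and -0.08 without the 3 mice. MiR-3535, within the nucleolin gene, was at 87.9 to 437 CPM in TG mice and at 59.0, 176, 249, 359.8 and 49.3 CPM in control mice. Here the 2 lowest control mice were mice 1 and 5, and the log2FC went from 0.53 to 0.09 without them and TG mouse 8. Among lower miRNAs they were miR-1264-3p (-0.67), miR-124-5p (-0.43) and miR-376a-5p (-0.43) with the factors, beside -0.60, -0.22 and -0.25 without. MiR-124-5p was at 23.6 to 38.4 CPM in TG mice 1, 2 and 3 and at 79.2 to 164 CPM in control mice, and without the 3 mice its log2FC was 0.17. Each of the 7 miRNAs with an unadjusted p under 0.05 kept its direction under each alternative, all of which refit the same mice or some of them. Of these 7, both fits with factors called miR-503-3p, miR-211-5p and miR-344c-3p. Both also called miR-1a-3p, with a log2FC of 0.79 (adjusted p = 0.000297, DESeq2), beside 0.27 without TG mice 1, 2 and 3 and -0.04 without all 6 mice, both fitted without factors.

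Without the 6 mice set apart on the components, 5 TG and 3 control mice remained. There 24 miRNAs (3.45%) did not overlap between the groups, 13 higher and 11 lower in TG mice. Groups of so few mice separate by chance more often than the full groups do. The count is therefore not comparable with that over all mice, and the part of chance in it was not tested. EdgeR still called 0, with 67 miRNAs at an unadjusted p under 0.05 and a smallest adjusted p of 0.226. The 6 mice were chosen after the libraries had been examined.

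The same comparison was made in 11 TG and 15 control mice of 6 months. Of 612 miRNAs, 0 (0%) were called by edgeR, 3 (0.49%) had an unadjusted p under 0.05, and 47.4% were higher in TG mice. The median standard error was 0.22 there and 0.33 at 3 months. For the miRNAs named above, the log2FC at 3 and 6 months was -0.76 and -0.28 for miR-503-3p, -0.63 and 0.04 for miR-211-5p and -0.52 and -0.01 for miR-344c-3p. It was 0.68 and -0.03 for miR-1a-3p and 0.69 and 0.04 for let-7f-5p. The test of the difference between ages, the interaction over all 40 mice, called 0 of 699 miRNAs (0%), with 14 (2%) at an unadjusted p under 0.05 and a smallest adjusted p of 0.986. Among these 14 was miR-211-5p, with a difference of -0.63 between ages (p = 0.0268, adjusted p = 0.986 from edgeR). For miR-1a-3p it was 0.76 (p = 0.0573, adjusted p = 0.986 from edgeR). A change between ages in the effect of the transgene was not detectable for any miRNA at this number of mice and this spread.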

How the data were processed

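Small RNA of CA1 was sequenced in 40 mice, and 14 enter the comparison at 3 months. The authors trimmed 3′ adapters with cutadapt, aligned reads to mm10 with mirdeep2 and deposited raw counts by mature miRNA and precursor of origin, annotated with miRBase. The deposited normalized values are RPM and equal the counts scaled to the library total within 0.005 RPM. Each of 1978 mature miRNAs was represented by its precursor of highest total, and spike-in oligos were left out. Counts were fitted with edgeR 4.0.16 (R 4.3.3): filterByExpr (minimum count 10, minimum total 15), TMM, robust dispersion, the quasi-likelihood test and Benjamini-Hochberg adjustment over all miRNAs tested, with log2FC as TG over wild-type. Groups follow the sample titles. Replicates are separate mice. The miRNA totals were 8215532 to 22892729 counts. Precision depended on the spread between mice as well as on counts, as miR-148a-3p had a wide interval at 34258 CPM.

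The miRNAs named have an unadjusted p under 0.05, the 5 highest or 5 lowest log2FC at 10 CPM or more, the 10 highest levels, the 3 narrowest or widest intervals at 100 CPM or more, or the 3 smallest adjusted p in each direction with 2 RUVr factors, or are among the most abundant of a list. Others were named to compare them with these after their values were seen. The comparison, the lists and the rules were chosen with earlier results of these data known. Alternatives were DESeq2 1.42.0, limma 3.58.1 on the RPM with a pseudocount of 1 or 0.1, RUVr and RUVg factors computed from their published definitions, other normalizations, filters and precursors, a joint fit, a replicate block and fewer mice. The fits were tested on simulated counts. There, variation was added to 3 TG mice only, and the fit with RUVr factors also called miRNAs that had not been altered. In the real libraries the factors varied among control mice too, so that this setting differs from the data. How many of the calls made here are of that kind was not tested, and the calls are given as an alternative. Of the 695 tested miRNAs, 594 matched a RefSeq sequence by name.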

Additional observations from a re-analysis of the deposited data

Results flagged for a closer look

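Dixon's test flags the highest or lowest mouse by chance in about 1 in 20 independent groups of normally distributed values. The groups examined here were the same mice seen over many measures, so that this rate is not a baseline for them. In 9 of 68 such groups, the highest or lowest mouse lay farther from the others than the test allows. TG mouse 8 was the highest TG mouse in 4 of these, with miR-128-3p taking 20.2% of its counts, 241878 CPM of miR-128-3p, 103648 CPM of miR-99a-5p and 55.8 CPM of miR-758-3p. The medians of the TG mice were 12.4%, 121024, 42281 and 24.0. TG mouse 3 was highest in miR-6948-5p with 2.75 CPM (median 0.76), and TG mouse 1 in miR-10b-5p with 125 CPM (median 12.3). Among control mice, mouse 3 was highest in miR-10b-5p with 49.3 CPM (median 5.64), mouse 2 in miR-15a-5p with 41.5 CPM (median 8.78) and mouse 4 in miR-409-5p with 654 CPM (median 514). No miRNA differed between ages in its TG effect by the interaction test.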

How the results depend on the processing

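The count of 0 called miRNAs at 3 months was the same under 34 of 37 alternatives, among them TG and control mice left out in turn (0 to 0) and control mice 1 and 2 left out or counted as TG. It was 3 for DESeq2 with 1 RUVr factor, 82 for DESeq2 and 48 for edgeR with 2. miRNAs without overlap between groups numbered 0 to 2 with 1 control mouse left out, 4 without control mice 1 and 2, 2 without TG mouse 8 and control mice 1 and 5, and 24 without all 6 mice apart. Smaller groups separate by chance more often, so that these counts are not comparable with each other. With 1 control mouse left out, the difference in spike-in share was -0.0541 to -0.0217 percentage points with an unadjusted p under 0.05 only without control mouse 2, that in the share of the top miRNA was -2.56 to -0.54 and that in the number of miRNAs with at least 10 counts was -2.56 to 30.4. The sets of mice apart and the sample weights were chosen after seeing the data.

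Of 140 miRNAs named or listed, the log2FC changed sign in 58 without TG mice 1, 2 and 3, in 22 without TG mouse 8 and control mice 1 and 5, and in 68 without all 6, let-7f-5p and miR-148a-3p among the first. For miRNAs named by p, by size at 10 CPM or more or by the RUVr calls, the reversed values were these. Without TG mice 1, 2 and 3: miR-10b-5p -0.18, miR-124-5p 0.17, miR-1839-5p -0.082, miR-184-3p -0.31, miR-376a-5p 0.13, miR-486a-3p -0.055. Without all 6 mice: miR-10b-5p -0.63, miR-124-5p 0.26, miR-1264-3p 0.059, miR-1839-5p -0.31, miR-184-3p -0.62, miR-3535 -0.26, miR-369-5p 0.039, miR-376a-5p 0.39, miR-486a-3p -0.33. With sample weights: miR-124-5p 0.25, miR-184-3p -0.28, miR-376a-5p 0.23. With spike-in library sizes: miR-124-5p 0.22, miR-376a-5p 0.25. With a RUVg factor from the spike-ins: miR-124-5p 0.018, miR-184-3p -0.045. With control mice 1 and 2 counted as TG: miR-124-5p 0.068, miR-376a-5p 0.11. With 1 mouse left out, miR-124-5p ran from -0.35 to 0.00471. The cause was not tested.

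Replicate numbers recur in both groups. The deviations of same-numbered mice correlated at 0.41, -0.66, 0.40, 0.05 and -0.15, and 1 of 5 control mice correlated best with its own number. No pairing by number was seen, though so few correlations cannot exclude one. A block for the replicate number gave 0 called miRNAs, with 74 at an unadjusted p under 0.05, and 0 with 60 for the interaction. The interaction called 0 under each of its 11 alternatives. Without control mouse 2, 16 miRNAs had an unadjusted p under 0.05. Of 1989 values of the other 54 named miRNAs, 31 moved by more than the spread between mice, 14 of them without the 6 mice and 11 with spike-in library sizes. Low levels limit the precision, with 2 or 3 counts in some libraries behind miRNAs under 1 CPM.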
